A study of Mus musculus with 16 samples.

Results

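The sortilin family receptors are the products of 5 mouse genes, Sorcs1, Sorcs2, Sorcs3, Sort1 and Sorl1, which were matched by symbol among the 21999 genes of the deposited expression table. All 5 were found and all 5 passed the expression minimum in every comparison. The family was chosen by measured values of these same libraries, the difference of Sorcs3 between knockouts and controls: it was lower in Foxp1 knockout hippocampus and higher in Foxp1 knockout cortex. The knockout and control values of the family are therefore given below as a description, without a test.

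RNA came from the left hemisphere of male mice at postnatal day 47 and was selected for poly(A) tails before sequencing. The 16 libraries form 4 groups of 4: knockout hippocampus, control hippocampus, knockout cortex and control cortex. Knockout mice (Foxp1cKO) carry a conditional deletion of Foxp1, a forkhead transcription factor, and the controls are their littermates. The published description of this line has floxed Foxp1 alleles cut by Emx1-Cre, which acts in progenitors of the dorsal forebrain and so also reaches glia born from them. The labels themselves name neither the Cre nor the alleles of the controls, and they do not tie the hippocampal libraries to the cortical ones by animal. Libraries are named by the DJ number of their titles.

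These receptors are single-pass membrane proteins that share a domain with a yeast vacuolar sorting receptor, and they move other proteins between the Golgi, endosomes and the cell surface. Sortilin (Sort1) and SorLA (Sorl1) are best known for sorting neurotrophin precursors, progranulin, lipoprotein lipase and the amyloid precursor protein. The SorCS proteins are found mainly in neurons, where they bear on the trafficking of neurexins, glutamate receptors and neurotrophin receptors. SorCS3 in the mouse is a postsynaptic protein of hippocampal CA1 neurons that binds the scaffold protein Pick1.

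Sorcs3 and Sorcs1 are neighbours on mouse chromosome 19. In the GENCODE M21 annotation of GRCm38, Sorcs3 (ENSMUSG00000063434.6) spans chr19:48206025-48805505 on the plus strand and Sorcs1 (ENSMUSG00000043531.16) spans chr19:50143299-50678646 on the minus strand. The gap between them is 1337.8 kb and holds 9 annotated genes, of which 0 are protein-coding. A single gene of that gap, the pseudogene Rpl13a-ps1, is in the expression table, and it was too low to be tested. The other 3 members lie on other chromosomes. Sorcs2 (ENSMUSG00000029093.14) spans chr5:36017180-36398139 on the minus strand, Sorl1 (ENSMUSG00000049313.8) spans chr9:41964720-42124297 on the minus strand, and Sort1 (ENSMUSG00000068747.14) spans chr3:108284082-108361511 on the plus strand.

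Promoter windows are shown for Sorcs3, Sorcs1 and Sorl1, 3 members whose knockout and control libraries did not overlap in at least 1 region and for which the RefSeq table (GRCm38.p6) holds a window. Each window runs 5′ to 3′ on the gene's strand from 250 bases before to 50 bases after the annotated start, and capitals mark CG dinucleotides. The Sorcs3 window is chr19:48205775-48206074 on the plus strand, the Sorcs1 window is chr19:50678597-50678896 on the minus strand, and the Sorl1 window is chr9:42124248-42124547 on the minus strand.
Sorcs3: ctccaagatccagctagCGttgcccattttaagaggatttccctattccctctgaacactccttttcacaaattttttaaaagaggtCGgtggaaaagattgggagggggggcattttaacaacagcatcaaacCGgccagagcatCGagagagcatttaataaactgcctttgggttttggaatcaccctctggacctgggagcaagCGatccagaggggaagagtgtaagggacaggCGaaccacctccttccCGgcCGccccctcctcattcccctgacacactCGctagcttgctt
Sorcs1: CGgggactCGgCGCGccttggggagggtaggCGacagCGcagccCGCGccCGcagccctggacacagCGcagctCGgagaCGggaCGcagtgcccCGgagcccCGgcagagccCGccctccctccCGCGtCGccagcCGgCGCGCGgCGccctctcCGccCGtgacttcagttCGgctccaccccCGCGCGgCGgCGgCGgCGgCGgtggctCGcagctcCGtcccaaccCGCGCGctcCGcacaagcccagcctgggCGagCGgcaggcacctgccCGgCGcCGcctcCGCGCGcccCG
Sorl1: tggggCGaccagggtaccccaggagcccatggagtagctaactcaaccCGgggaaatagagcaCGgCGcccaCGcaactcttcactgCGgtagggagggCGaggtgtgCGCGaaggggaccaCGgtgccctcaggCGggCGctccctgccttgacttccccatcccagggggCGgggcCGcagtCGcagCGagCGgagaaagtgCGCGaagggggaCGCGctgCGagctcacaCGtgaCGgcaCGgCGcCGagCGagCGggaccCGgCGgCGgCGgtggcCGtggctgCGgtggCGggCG

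The windows differ in base composition. The Sorcs3 window had 51.0% G and C and 9 CG dinucleotides, close to the median of the 32851 promoter windows in the table, 52.7% and 7. The Sorcs1 window had 80.7% G and C and 50 CG dinucleotides, more than 99.1% of the windows. The Sorl1 window had 72.3% and 37 CG dinucleotides, more than 94.4% of the windows. A forkhead-type sequence, TGTTTAC, and its core, TGTTT, which lies within it, were searched on both strands. TGTTTAC was present in 3.65% and TGTTT in 50.5% of all windows. Neither was present in the 3 windows printed, which says only that these letters are not in these 300 bases. A second annotated start of Sorl1, at chr9:42077164-42077463 on the minus strand, had 44.0% G and C and 2 matches to TGTTT.

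Depth is given as reads assigned to the listed genes, recovered from the expression table. In hippocampus it was 6943136 to 14055344 reads in knockouts and 9578904 to 14817870 in controls. In cortex it was 8160441 to 9164571 reads in knockouts and 7075560 to 9037821 in controls. Levels are in counts-per-million (CPM), the reads of a gene scaled to a library total of 1000000. The 5 members rested on 122 to 8437 reads per library, the fewest for Sorcs2. As a check of the labels, Foxp1 averaged 119 ± 16.0 CPM in knockout hippocampus and 227 ± 45.3 CPM in control hippocampus (SD, n = 4 each), and 113 ± 21.2 CPM in knockout cortex and 284 ± 14.1 CPM in control cortex. Its knockout and control libraries did not overlap in either region. Control hippocampus library DJ17 stands apart from its group in oligodendrocyte transcripts and, at a summed 946 CPM of 8 markers against 198 to 459 CPM in the other control hippocampi, in striatal ones. Without DJ17 the hippocampal log2 fold changes of knockout minus control were -0.65 for Sorcs3, 0.13 for Sorcs1, 0.07 for Sorcs2, -0.27 for Sorl1 and -0.14 for Sort1. Knockout hippocampus library DJ15 also had a high striatal sum, 971 CPM, against 464 to 754 CPM in the other knockout hippocampi. Without DJ15 the fold changes were -0.64 for Sorcs3, -0.08 for Sorcs1, 0.18 for Sorcs2, -0.17 for Sorl1 and -0.10 for Sort1.

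Sorcs3, the postsynaptic family member, was lower in knockout hippocampus and higher in knockout cortex than in the controls of the same region. In hippocampus it was at 54.3, 49.3, 41.8 and 54.0 CPM in the knockout libraries DJ15, DJ16, DJ18 and DJ19, and at 66.5, 79.9, 78.7 and 76.1 CPM in the control libraries DJ17, DJ20, DJ21 and DJ22. Every knockout hippocampus lay below every control hippocampus. In cortex it was at 128, 114, 115 and 119 CPM in the knockout libraries DJ1, DJ2, DJ4 and DJ5, and at 65.8, 67.8, 67.7 and 67.4 CPM in the control libraries DJ3, DJ6, DJ7 and DJ8. Every knockout cortex lay above every control cortex, and the 4 control cortices lay within a narrow band.

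The mean Sorcs3 level in knockout hippocampus was 66.2% of that in control hippocampus, a log2 fold change of -0.59 (SE 0.09). The mean in knockout cortex was 177% of that in control cortex, a log2 fold change of 0.82 (SE 0.06). Fold changes are on the scale of log2(CPM + 0.5). Leaving out each library in turn gave -0.65 to -0.51 in hippocampus, with -0.65 when DJ17 was left out, and 0.78 to 0.84 in cortex. The order of the 4 group means was knockout cortex, control hippocampus, control cortex and knockout hippocampus. Control hippocampus and control cortex were neighbours in this order whose libraries overlapped, at 66.5 to 79.9 CPM and 65.8 to 67.8 CPM.

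**Figure D1:**
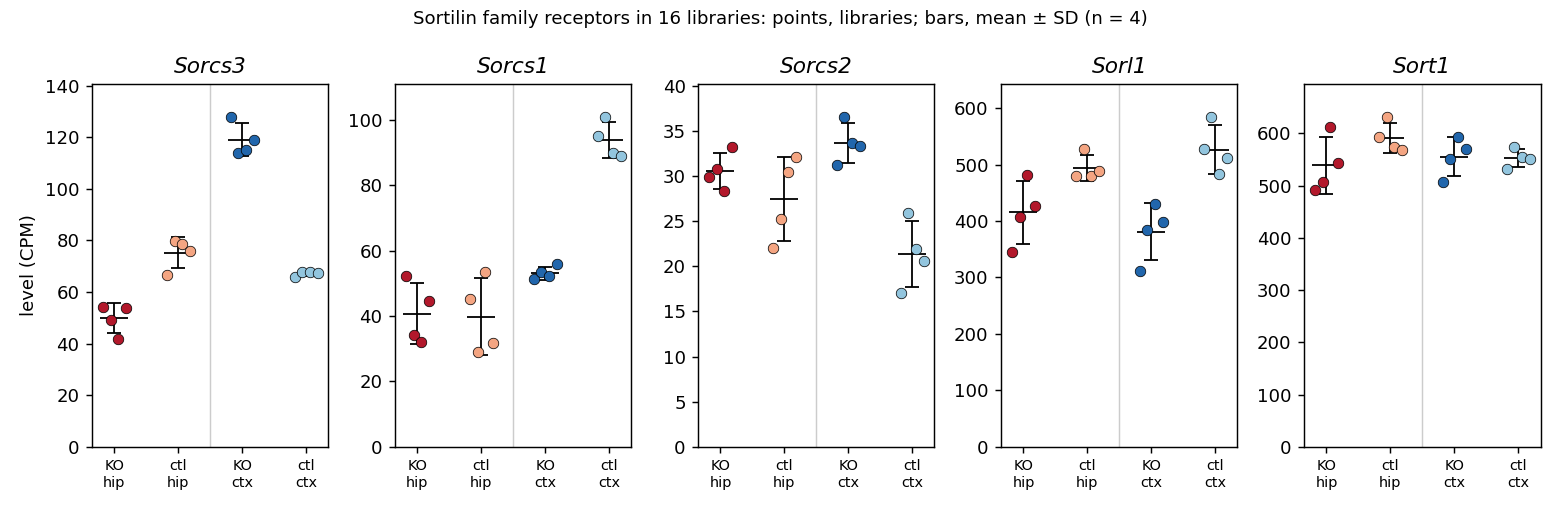
Level of each sortilin family receptor in CPM (vertical axes, starting at 0, 1 panel a gene) in the 16 libraries, with knockout left of control within hippocampus and cortex. Points are libraries and bars are means with SD over 4 libraries. Sorcs3 lies at 41.8 to 54.3 CPM in knockout hippocampus and at 114 to 128 CPM in knockout cortex, while its control libraries lie at 65.8 to 79.9 CPM over both regions.

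Sorcs1, which moves neurexins and glutamate receptors to the neuronal surface, was lower in knockout cortex than in control cortex and overlapped between genotypes in hippocampus. In cortex it was at 51.2, 53.4, 52.1 and 55.8 CPM in the knockout libraries, listed in the same order of DJ numbers as above, and at 95.2, 101, 90.0 and 89.0 CPM in the control libraries. The groups were far apart and neither was widely spread. The knockout mean was 56.7% of the control mean, a log2 fold change of -0.81 (SE 0.06). In hippocampus it was at 52.2, 34.3, 32.1 and 44.5 CPM in the knockout libraries, and at 45.3, 28.9, 53.6 and 31.6 CPM in the control libraries. Both hippocampal groups held high and low libraries, and the log2 fold change was 0.05 (SE 0.2), with -0.09 to 0.21 over the 8 fits that leave out 1 library. That direction was not stable, since edgeR on the recovered reads gave -0.03.

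Sorcs2, a partner of the neurotrophin receptor Ngfr in binding neurotrophin precursors, was higher in knockout cortex than in control cortex. It was at 31.2, 36.6, 33.7 and 33.3 CPM in knockout cortex, and at 17, 25.9, 21.9 and 20.6 CPM in control cortex. The groups did not overlap, and the knockout mean was 158% of the control mean, a log2 fold change of 0.66 (SE 0.11). In hippocampus it was at 29.9, 30.8, 28.4 and 33.2 CPM in knockouts, and at 22, 25.2, 30.5 and 32.1 CPM in controls. These groups overlapped, with a log2 fold change of 0.17 (SE 0.12). It was 0.07 without DJ17 and 0.25 without DJ22, the ends of its range over the fits that leave out 1 library.

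Sorl1, the sorting receptor that holds the amyloid precursor protein back in the Golgi and endosomes, was lower in knockout cortex. It was at 312, 384, 431 and 398 CPM in knockout cortex, and at 527, 585, 483 and 512 CPM in control cortex. The groups did not overlap, and the knockout mean was 72.4% of the control mean, a log2 fold change of -0.47 (SE 0.08). In hippocampus it was at 346, 408, 482 and 427 CPM in knockouts, and at 480, 527, 480 and 489 CPM in controls. A single knockout hippocampus, DJ18, reached the control range, and the log2 fold change was -0.26 (SE 0.09). It was -0.17 without the knockout library DJ15 and -0.33 without DJ18, the ends of its range over the fits that leave out 1 library.

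Sort1, the founding member, which sorts neurotrophins and progranulin, had overlapping groups in both regions. In cortex it was at 506, 550, 593 and 571 CPM in knockouts, and at 531, 574, 555 and 551 CPM in controls, a log2 fold change of 0.00 (SE 0.05). In hippocampus it was at 491, 507, 612 and 544 CPM in knockouts, and at 593, 632, 573 and 569 CPM in controls, a log2 fold change of -0.14 (SE 0.07). The knockout library DJ18 lay within the control range and the other 3 lay below it.

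Sorcs3 in these same comparisons chose the family, so the counts that follow describe it and are not a test of it. Read as a family, 1 of 5 members was past an adjusted p of 0.05 in hippocampus, where 1.38% of the 13899 genes tested were. In cortex 4 of 5 members were, where 13.5% of 13713 genes were. Neither count is read as an excess over the share of all genes. Groups did not overlap for 1 of 5 members in hippocampus, against 8.01% of all genes tested, and for 4 of 5 in cortex, against 17.7%. The 4 cortical members were split evenly, Sorcs3 and Sorcs2 higher and Sorcs1 and Sorl1 lower. The median log2 fold change of the 5 members was -0.14 in hippocampus and 0.00 in cortex, beside 0.06 and 0.03 over all genes tested. In these pieces of tissue, fewer cells of a type and less RNA per cell cannot be told apart.

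**Figure D2:**
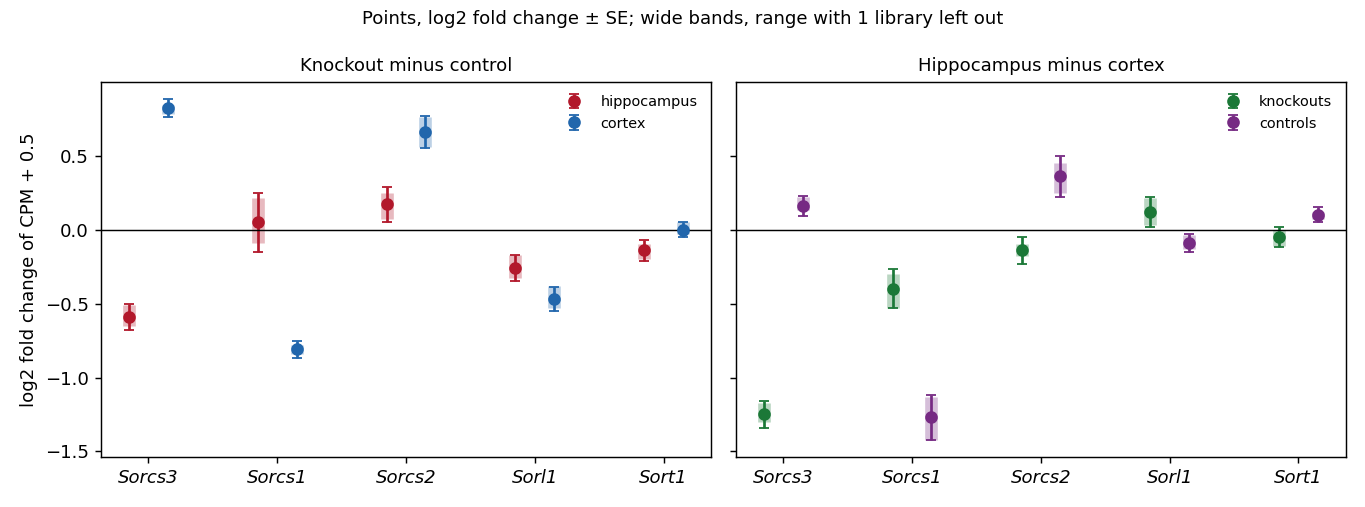
Log2 fold change of each sortilin family receptor (vertical axes, log2(CPM + 0.5) scale), knockout minus control in hippocampus and cortex on the left, and hippocampus minus cortex in knockouts and controls on the right, with bars of 1 SE and wide bands for the range when 1 library is left out. Sorcs3 lies at -0.59 in hippocampus and 0.82 in cortex on the left, and Sorcs1 at -0.40 in knockouts and -1.27 in controls on the right.

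Levels of different members can be set side by side only per length, as CPM per kilobase of the union of annotated exons. In knockout hippocampus Sort1 stood at 78.0 ± 7.75, Sorl1 at 38.8 ± 5.23, Sorcs3 at 8.85 ± 1.03, Sorcs1 at 4.83 ± 1.11 and Sorcs2 at 4.33 ± 0.28 CPM per kilobase (SD, n = 4). In control hippocampus the same order held, with Sorcs3 at 13.4 ± 1.08. In knockout cortex Sorcs3 reached 21.1 ± 1.11 and Sorcs1 6.29 ± 0.234 CPM per kilobase. In control cortex those values were 11.9 ± 0.163 and 11.1 ± 0.632, so the pair lay close together there. Sorcs1 and Sorcs2 overlapped between libraries in both hippocampal groups, at 3.80 to 6.18 and 4.02 to 4.69 in knockouts and at 3.43 to 6.35 and 3.12 to 4.54 in controls.

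The balance between the chromosome 19 neighbours shows both of these shifts in 1 value per library. The ratio of Sorcs3 to Sorcs1, per kilobase, was 1.56, 2.15, 1.95 and 1.82 in knockout hippocampus (DJ15, DJ16, DJ18 and DJ19), and 2.20, 4.14, 2.20 and 3.61 in control hippocampus (DJ17, DJ20, DJ21 and DJ22). The hippocampal groups came close to each other, at 2.15 and 2.20. The ratio was 3.74, 3.20, 3.30 and 3.20 in knockout cortex, and 1.04, 1.01, 1.13 and 1.13 in control cortex. Sorcs1 was thus nearly as abundant per length as Sorcs3 in control cortex alone among the 4 groups. The ratio was built from members chosen in these libraries and was not tested.

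**Figure D3:**
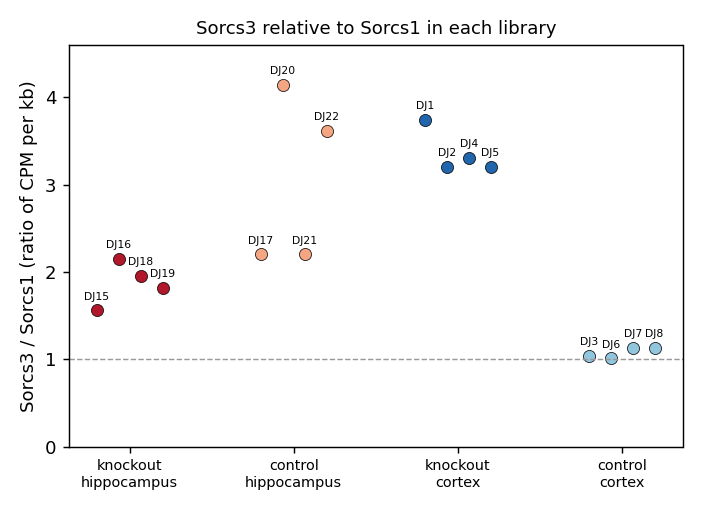
Ratio of Sorcs3 to Sorcs1, each in CPM per kilobase of exon (vertical axis), in each of the 16 libraries, with knockout left of control within each region and a dashed line at a ratio of 1. Knockout cortex lies at 3.20 to 3.74 and control cortex at 1.01 to 1.13, while knockout hippocampus lies at 1.56 to 2.15 and control hippocampus at 2.20 to 4.14.

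The expression table holds 8 genes within 1000 kb upstream of Sorcs3. In knockout cortex 2 of the 7 tested passed, where 13.5% of all genes did, and the other 5 had adjusted p from 0.065 up by limma. Sh3pxd2a, a scaffold protein of invadopodia, rose in knockout cortex by a log2 of 0.35 (SE 0.07, limma adjusted p = 0.0016), and Cfap43, a cilia gene, by 0.89 (SE 0.25, limma adjusted p = 0.024). In hippocampus those genes gave 0.05 (SE 0.07) and 0.21 (SE 0.19), and neither passed the test.

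Hippocampus was compared with cortex within each genotype for the 4 members other than Sorcs3. Hippocampal and cortical libraries carry separate DJ numbers, so region and anything else shared by those libraries cannot be told apart. Sorcs1 was lower in control hippocampus than in control cortex, at 39.8 ± 11.6 and 93.7 ± 5.34 CPM (SD, n = 4 each), which is 42.5% of the cortical mean. The log2 difference was -1.27 (SE 0.15, limma with Benjamini-Hochberg adjustment over all genes, adjusted p = 2.7e-05), and every control hippocampus lay below every control cortex. Sorcs1 was the 1 member of these 4 that passed, in a comparison where 37.8% of all genes tested passed and 36.8% did not overlap.

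In controls Sorcs2 had a log2 difference between hippocampus and cortex of 0.36 (SE 0.14, limma adjusted p = 0.061). It passed when all 16 libraries were fitted together (limma adjusted p = 0.025) and when DJ6 or DJ17 was left out (limma adjusted p = 0.028 and 0.013). Sorl1 and Sort1 did not pass, at -0.09 (SE 0.06, limma adjusted p = 0.27) and 0.10 (SE 0.05, limma adjusted p = 0.14). Sorcs3 had a mean of 75.3 ± 6.07 CPM in control hippocampus and 67.2 ± 0.917 CPM in control cortex, and its libraries overlapped.

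In knockouts Sorcs1 stood at 40.8 ± 9.34 CPM in hippocampus and 53.1 ± 1.98 CPM in cortex (SD, n = 4 each). The log2 difference was -0.40 (SE 0.13, limma adjusted p = 0.022), and the libraries overlapped, since the hippocampal library DJ15 had 52.2 CPM. Leaving out DJ2, DJ5, DJ16 or DJ18 ended the call, with limma adjusted p of 0.051, 0.058, 0.076 and 0.057. Among all genes, 34.6% passed in this comparison and 33.0% did not overlap. Sorcs2, Sorl1 and Sort1 had log2 differences of -0.14 (SE 0.09), 0.12 (SE 0.1) and -0.05 (SE 0.07), with limma adjusted p of 0.25, 0.38 and 0.67. Sorcs3, given as a description, had 49.9 ± 5.83 CPM in knockout hippocampus and 119 ± 6.24 CPM in knockout cortex, with no overlap.

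Cell type markers moved with some of these values, and their part in them was not tested. In hippocampus 0.662% of all genes tested rose in knockouts and 0.719% fell, and in cortex 7.64% rose and 5.83% fell. The summed level of 6 markers of CA1 pyramidal neurons, the cells in which SorCS3 protein is best known, was 268 to 310 CPM in knockout hippocampus and 428 to 547 CPM in control hippocampus, and 3 of the 6 fell while 0 rose. In cortex they summed to 194 to 212 CPM in knockouts and 157 to 171 CPM in controls, and 2 rose while 1 fell. There Wfs1 averaged 58.3 CPM in knockouts and 25.5 CPM in controls, Ndst4 24.7 and 9.05 CPM, and Pou3f1 15.6 and 26.4 CPM. The 6 upper-layer cortical markers summed to 992 to 1056 CPM in knockout cortex and 962 to 1068 CPM in control cortex. Of these, 3 rose and 1 fell. The 8 deep-layer markers summed to 646 to 711 CPM and 633 to 729 CPM in those groups, and 1 rose while 3 fell. With all 16 libraries in 1 fit, 0 of those 8 passed. The 5 CA3 markers summed to 214 to 229 CPM in knockout hippocampus and 258 to 295 CPM in control hippocampus, where 1 rose and 1 fell. In cortex 4 of 6 CA2 markers rose and 1 fell, while their sums, 245 to 335 CPM in knockouts and 310 to 345 CPM in controls, overlapped. Most of those sums was Pcp4, at a mean of 224 CPM in knockout cortex and 289 CPM in control cortex. The 6 dentate granule cell markers summed to 442 to 550 CPM in knockout cortex and 268 to 293 CPM in control cortex, where 1 of the 4 tested rose. Most of that sum was Calb1, at a mean of 456 CPM in knockout cortex and 246 CPM in control cortex. Prox1 averaged 28.4 and 29.6 CPM in those groups, and Dsp, C1ql2 and Lct were each below 1 CPM in both. In cortex the 9 oligodendrocyte markers summed to 2909 to 3877 CPM in knockouts and 4845 to 6632 CPM in controls, and 8 of 9 fell, or 5 of 9 with all 16 libraries in 1 fit. The 8 striatal neuron markers summed to 660 to 994 CPM in knockout cortex and 266 to 585 CPM in control cortex, and 6 of 8 rose. That count was 1 of 8 with all 16 libraries in 1 fit, 3 without an expression minimum and 4 under edgeR or quantile normalization. In hippocampus 0 of 9 oligodendrocyte markers passed, at sums of 6040 to 8627 CPM in knockouts and 4813 to 12551 CPM in controls, where DJ17 had the highest value. No marker of these lists was at 0 throughout a group. The sums of some marker lists separated the labelled regions in controls and those of others did not. Among all genes tested, 20.9% were higher and 16.9% lower in control hippocampus than in control cortex. CA1 markers summed to 428 to 547 CPM in control hippocampus and 157 to 171 CPM in control cortex. The 6 upper-layer cortical markers summed to 405 to 420 CPM in control hippocampus and 962 to 1068 CPM in control cortex. The CA2 sum was lower in control hippocampus, at 192 to 278 CPM, than in control cortex, at 310 to 345 CPM. Of those 6 genes, 5 were higher and 1 was lower in hippocampus. Pcp4 averaged 122 CPM in control hippocampus and 289 CPM in control cortex. The sums of the 8 deep-layer cortical markers overlapped, at 648 to 689 CPM in control hippocampus and 633 to 729 CPM in control cortex. Of those 8 genes, 2 were higher and 4 lower in hippocampus. Bcl11b averaged 346 CPM in control hippocampus and 144 CPM in control cortex, and Tbr1 57.4 and 256 CPM.

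The genes that work with these receptors were counted from 5 lists of 68 genes in all: ligands, co-receptors, cargo, processing proteases and trafficking adaptors. In hippocampus 1 of 63 tested genes rose and 2 fell in knockouts, where 0.662% of all genes rose and 0.719% fell. In cortex 13 of 60 rose and 1 fell, where 7.64% of all genes rose and 5.83% fell. Of those 14 cortical calls, 9 held under all alternatives. The lists were chosen with earlier results of these data known, so the list counts are descriptions. All adjusted p-values below are Benjamini-Hochberg values from limma over all genes tested.

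Among the ligands, 1 of 11 tested fell and 0 rose in knockout hippocampus, and 3 of 10 rose and 0 fell in knockout cortex, with median log2 fold changes of 0.10 and 0.44. Lpl, lipoprotein lipase, a ligand of sortilin and SorLA, moved in opposite directions in the regions, as did Sorcs3. It averaged 48.4 ± 4.92 CPM in knockout hippocampus and 120 ± 13.9 CPM in control hippocampus (SD, n = 4 each), a log2 fold change of -1.30 (SE 0.09, limma adjusted p = 6.7e-05). It averaged 99.0 ± 16.3 CPM in knockout cortex and 32.2 ± 4.09 CPM in control cortex, a log2 fold change of 1.60 (SE 0.11, limma adjusted p = 3.2e-08). The difference between these 2 fold changes was not tested here. Bdnf, a neurotrophin whose precursor sortilin sorts, rose in knockout cortex, at 78.8 ± 8.25 CPM and 54.1 ± 3.65 CPM in controls (limma adjusted p = 1.4e-04). Lrpap1, a chaperone of lipoprotein receptors that also binds sortilin, rose there by a log2 of 0.34 (SE 0.06, limma adjusted p = 5.9e-04).

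Among the co-receptors, 1 of 10 tested rose and 1 fell in knockout hippocampus, and 3 of 8 rose and 1 fell in knockout cortex, with median log2 fold changes of 0.12 and 0.09. Gfra1, a receptor of the neurotrophic factor Gdnf and a cargo of SorLA, rose in hippocampus by a log2 of 0.46 (SE 0.07, limma adjusted p = 0.01). In cortex it rose by 0.30 (SE 0.09, limma adjusted p = 0.039), a call lost under both rescalings, under edgeR and without any of 6 libraries (adjusted p up to 0.13 by limma). Ntrk3, the receptor of neurotrophin Ntf3, rose in cortex by 0.36 (SE 0.09, limma adjusted p = 0.0099). Lifr, a cytokine receptor that binds sortilin, fell in hippocampus by a log2 of 0.41 (SE 0.08, limma adjusted p = 0.025), a call lost without any of DJ15, DJ16, DJ20, DJ21 or DJ22 (adjusted p up to 0.11 by limma). Ntsr1, a neurotensin receptor, stood at 6.79 ± 1.61 CPM in knockout cortex and 4.23 ± 1.24 CPM in control cortex (limma adjusted p = 0.04). That call was lost in the fit of all 16 libraries, with limma adjusted p = 0.19, and without any of 5 libraries.

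Among the 12 synaptic and membrane cargo genes, 0 passed in hippocampus and 5 rose in knockout cortex, with median log2 fold changes of -0.03 and 0.15. Gria3, an AMPA receptor subunit, averaged 721 ± 23.4 CPM in knockout cortex and 567 ± 18.9 CPM in control cortex (limma adjusted p = 3.8e-05). Nrxn3, a presynaptic neurexin, averaged 758 ± 23.6 and 640 ± 25.6 CPM in the same groups (limma adjusted p = 0.0013), and Gria1, another AMPA receptor subunit, 503 ± 26.5 and 425 ± 15.2 CPM (limma adjusted p = 0.0026). The log2 fold changes were 0.35, 0.25 and 0.24. App, the amyloid precursor protein, was not among the genes that passed in either region.

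Among the 13 proteases 1 rose in knockout cortex and 0 passed in hippocampus. It was Bace1, the beta-secretase, at 140 ± 6.03 CPM in knockout cortex and 108 ± 7.86 CPM in control cortex, a log2 fold change of 0.38 (SE 0.06, limma adjusted p = 3.5e-04). Among the 17 retromer and Golgi-endosome adaptors 1 rose in knockout cortex and 0 passed in hippocampus. It was Pacs1, a Golgi sorting adaptor, with a log2 fold change of 0.32 (SE 0.08, limma adjusted p = 0.011). The median log2 fold changes in cortex were -0.02 for the proteases and 0.04 for the adaptors.

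**Figure D4:**
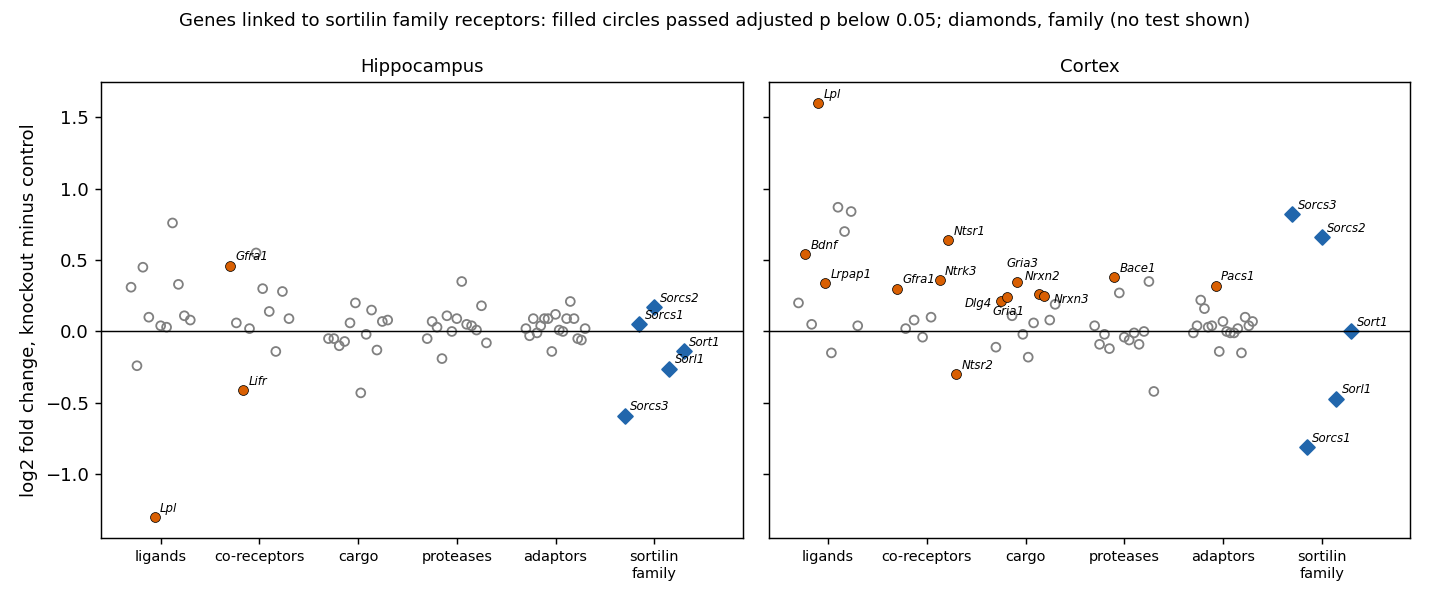
Log2 fold change, knockout minus control (vertical axis), of the genes linked to the sortilin family receptors by list (horizontal axis), in hippocampus and in cortex, with the receptors themselves as diamonds. Filled circles passed an adjusted p of 0.05. Lpl lies at -1.30 in hippocampus and 1.60 in cortex, and the other filled circles lie within 0.64 of 0.

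Between regions, 20 of 61 tested genes of the 5 lists were higher and 10 lower in control hippocampus than in control cortex, where 20.9% of all genes were higher and 16.9% lower. Of these 30 calls, 22 held under all alternatives. Gria1 averaged 1380 ± 110 CPM in control hippocampus and 425 ± 15.2 CPM in control cortex (log2 difference 1.70, SE 0.06, limma adjusted p = 4.5e-10). Nts, neurotensin, a ligand of sortilin, averaged 6.61 ± 2.42 and 0.804 ± 0.346 CPM in those groups (limma adjusted p = 7.4e-06). Lpl was higher in hippocampus than in cortex in controls, by a log2 of 1.88 (SE 0.10, limma adjusted p = 1.3e-08). In knockouts it was lower in hippocampus than in cortex, with a log2 difference of -1.02 (SE 0.11, limma adjusted p = 4.0e-06). In knockouts 13 of 64 tested genes of the lists were higher and 14 lower in hippocampus, where 20.5% of all genes were higher and 14.1% lower, and 21 of the 27 calls held under all alternatives.

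The genes whose profile over the 16 libraries was most like that of each member were ranked among 12734 genes by the root mean square difference of log2 values, each profile minus its own mean. The same libraries chose Sorcs3, so these are descriptions. Sorcs3, with a spread of 0.46 over the libraries, was nearest to Plk2, a polo-like kinase, at 0.16. Plk2 averaged 134 CPM in knockout hippocampus, 194 in control hippocampus, 258 in knockout cortex and 178 in control cortex, the same order of groups as Sorcs3. Ccnd1, Pam, Itpka, Npy1r, Tle3, Ackr1 and Ajap1 followed at 0.232 to 0.258.

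Sorcs1, with a spread of 0.558, was nearest to Il1rapl2, Epb41 and Ptgfrn, at 0.192, 0.211 and 0.232. Sorcs2, with a spread of 0.295, was nearest to Gprin1, Pnma2 and Diaph1, at 0.152 to 0.154. Sorl1, with a spread of 0.233, was nearest to Setd7, Pitpnc1 and Pclo, at 0.09, 0.112 and 0.12. Sort1 was the steadiest member, with a spread of 0.097, and was nearest to Pdpk1, Ash1l and Arfgef1. The members were not each other's nearest genes: Sorcs1 ranked 10804 from Sorcs3, and the closest pair was Sort1 and Sorl1, at 0.189. Sort1 ranked 167 from Sorl1, while Sorl1 ranked 3346 from Sort1, whose own spread was smaller than that distance.

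The authors' deposited tables of genes they called hold 243 genes in hippocampus and 874 in cortex. In the authors' deposited table for hippocampus Sorcs3 has a log2 fold change of -0.65, and no other member is listed. In the authors' deposited table for cortex Sorcs3 has 0.79, Sorcs1 -0.85, Sorcs2 0.62 and Sorl1 -0.50, and Sort1 is not listed. These values come from the same libraries.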

How the data were processed

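Levels are CPM, counts per 1000000, as deposited for 21999 genes in 16 libraries. Per the submitters' processing notes, STAR, HTSeq and edgeR were used with the builds mm10 and GRCm38. Their roles and versions, the annotation and the strand setting were not given in the sources used here, so reads of Sorcs1, Sorl1 and Sort1 cannot be told apart from those of the 3 annotated antisense genes that overlap their exons. Each deposited CPM column sums to 1000000, and 100% of its values are whole multiples of 1 read within 0.001 reads, so whole reads and depths were recovered. The design text calls the replicates independent. The chi-square per degree of freedom between replicates ran from 2.14 to 17.13, so no library was a copy of another.

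A gene entered a fit if its mean over the 8 libraries compared reached 0.5 CPM. Fits were made with limma 3.58.1 (R 4.3.3, trend) on log2(CPM + 0.5), and a call needed a Benjamini-Hochberg adjusted p below 0.05. The authors' own tables hold, per the file headers, log2 fold changes and adjusted p-values of called genes, and q-values of Gene Ontology terms. Alternatives were pseudocounts of 0.1 and 1, no minimum or 1 CPM, median-of-ratios rescaling, quantile normalization, edgeR 4.0.16 quasi-likelihood tests on the recovered reads, all 16 libraries in 1 fit and leaving out each library. On those reads edgeR called 190 genes in hippocampus, 1794 in cortex, and 5102 and 4713 between regions in controls and knockouts.

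The members and lists were chosen with earlier results of these data known. Named genes were the members, Foxp1, up to 3 called genes with the smallest p per list and comparison, and the most similar profiles, 8 for Sorcs3 and 3 for each other member. Only some of the genes this rule allows for the comparison between regions are named. Genes near Sorcs3, and App, were named after their values were seen. The fits were tested on simulated data. Sequences are from RefSeq and gene spans from GENCODE.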

Additional observations from a re-analysis of the deposited data

Results flagged for a closer look

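Sorcs3 differed in opposite directions between the regions. In hippocampus the log2 fold change of knockout minus control was -0.59, and all 4 knockouts lay below all 4 controls. In cortex it was 0.82, and all 4 knockouts lay above all 4 controls. The difference between the regions was not tested for Sorcs3, because these values chose the gene. Among the 5 members in the 4 groups, 20 sets of 4 libraries were examined for a library far from the others, and 0 were found, where chance gives about 1 in 20.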

How the results depend on the processing

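No paired analysis was possible because the groups share no replicate numbers. The number of genes called in hippocampus, 192, was 446 with all 16 libraries in 1 fit and ranged from 56 to 295 over the fits that leave out 1 library: 56 without DJ20, 63 without DJ16, 82 without DJ19, 91 without DJ21 and 295 without DJ17. Of the 192, 92 were higher and 100 lower. This split was 59 and 131 under edgeR, 60 and 135 under median-of-ratios rescaling, and 56 and 109 under quantile normalization. In cortex it was 1047 and 800, against 853 and 941 under edgeR and 829 and 951 under median-of-ratios rescaling. Between regions in controls, 2888 genes were higher and 2334 lower in hippocampus, against 2491 and 2611 under edgeR and 2597 and 2651 under quantile normalization. In knockouts it was 2853 and 1963, against 2369 and 2344 under edgeR and 2442 and 2504 under quantile normalization. The Sorcs2 difference between control hippocampus and control cortex, 0.36 on the log2 scale, passed with all 16 libraries in 1 fit (0.36, limma adjusted p = 0.025) and ranged from 0.25 to 0.45 when 1 library was left out. The Sorcs1 difference between knockout hippocampus and knockout cortex ranged from -0.53 to -0.30 when 1 library was left out, and 4 of those 8 fits did not pass. The Sort1 difference between those groups, -0.05, turned to 0.02 under quantile normalization (limma adjusted p = 0.83). The cause was not tested. Without an expression minimum, 129 genes passed in hippocampus. Of the 3 list genes called in hippocampus, 2 held under all alternatives, and of the 14 in cortex, 9 did. Of the 17 adaptors, 1 was called lower in knockout cortex under edgeR and under median-of-ratios rescaling, where 0 were in the reported fit. Counting error is largest for Sorcs2, with as few as 122 reads in a library.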

Other observations

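Sorcs3 appears in other lists that the authors deposited, which entered no comparison here. In the authors' deposited table of genes changed 5 h after tetanization, taken from another study, Sorcs3 is among 198 genes, with p = 5.7e-04 in that table. Its direction there was not read, and 0 other members are in that table. In the authors' deposited table of Gene Ontology terms, Sorcs3 is in 6 terms of cluster 6, with q-values of 0.0311 to 0.03958. Those are terms of the authors' own gene clusters, so the place of Sorcs3 there is not counted as separate from the values that chose it. The authors' deposited lists for heterozygous Foxp1 knockouts hold Sorcs1 among 652 genes that were higher and Sort1 among 724 that were lower, with no values. The tissue behind these lists is not stated, so they are not set against the values here. Sorcs3, Sorcs2 and Sorl1 are in neither of those lists, and 0 members are in the overlap with autism-associated genes.

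The summed level of the 5 members was 974 to 1196 CPM in knockout hippocampus and 1198 to 1294 CPM in control hippocampus, and 1028 to 1224 CPM in knockout cortex and 1217 to 1354 CPM in control cortex. Sort1 and Sorl1 make up most of each sum.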
